A study of Homo sapiens with 6 samples.

Results

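The hepatic transcription factor network was followed through 8 genes, found by symbol among the 60623 genes of each deposited table: HNF4A, NR5A2, FOXA1, FOXA2, FOXA3, CEBPA, ONECUT1 and PROX1. The data are RNA-seq of 6 libraries from hepatocyte-like cells, labelled as hepatoblasts at day 19 and derived from H9, an established human embryonic stem cell line. In 3 libraries the cells had received HFPO-TA (hexafluoropropylene oxide trimer acid), one of the perfluoroalkyl ether carboxylic acids. The dose is recorded as 10, but its unit is garbled and is not given here. In the other 3 the cells had received 0.1% DMSO as vehicle, and a DMSO share is not recorded for the HFPO-TA libraries. All 6 libraries share the same line and differentiation. Whether replicates were separate cultures is not stated, so the spread behind each p-value is that of the libraries and could be technical only.

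These factors sustain the identity of liver cells by binding the enhancers and promoters of liver genes, their own included. FOXA proteins can open closed chromatin early in liver development, HNF4A and NR5A2 are nuclear receptors that drive lipoprotein, clotting and bile acid genes, and CEBPA drives genes of mature hepatocyte metabolism. ONECUT1 and PROX1 act in hepatoblasts, where mouse studies place them in biliary and hepatocyte fate and in the outgrowth of the liver bud. Most of the network is not specific to liver, since HNF4A and FOXA genes are also active in gut epithelium.

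No member passed the test across all genes, but several separated the groups. HNF4A, FOXA1 and FOXA3 were lower in every HFPO-TA library than in any DMSO library, and CEBPA and PROX1 were higher in every one. FOXA2, NR5A2 and ONECUT1 overlapped between the groups. On mean TPM the 5 that separated the groups were 24.2% (FOXA1), 22% (HNF4A) and 14.2% (FOXA3) lower, and 17.3% (CEBPA) and 39.5% (PROX1, below 1 TPM throughout) higher, while the 3 that overlapped were 8.03% (NR5A2), 19.9% (FOXA2) and 21.7% (ONECUT1) higher. limma called 0 of the 7 members above the expression filter, against 0.492% of all 15664 tested genes, at a Benjamini-Hochberg adjusted p under 0.05 (0.185% higher and 0.306% lower). Before adjustment, 3 of the 7 (HNF4A, FOXA1 and CEBPA) had a p under 0.05, against 12.0% of all tested genes. The groups did not overlap in 4 of the 7 tested members, against 17.9% of all tested genes. On the lower side these were 3 members, against 9.40%, and on the higher side 1, against 8.55%. PROX1 lay below the filter and is not among them. Replicate 1 of each group carries a different letter in its deposited name from replicates 2 and 3, unexplained by the labels. Within replicates 2 and 3 the log2 fold changes were -0.39 for HNF4A, -0.30 for FOXA1, -0.19 for FOXA3, 0.37 for FOXA2, 0.31 for CEBPA, 0.02 for NR5A2 and -0.07 for ONECUT1, and replicate 1 holds 1 library per group.

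**Figure D1:**
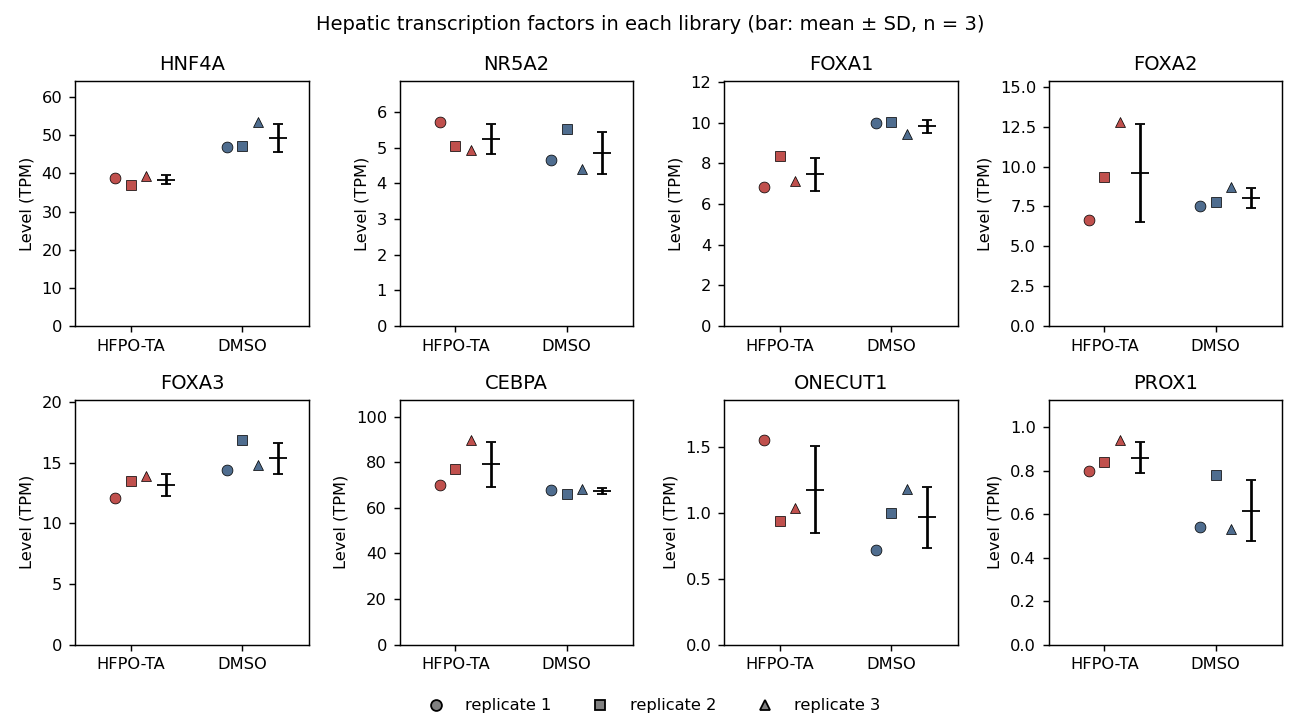
Level of each of the 8 factors in TPM (vertical axis, from 0) in the 3 HFPO-TA libraries (red, left) and the 3 DMSO libraries (blue, right), with symbols for the replicate number and a bar for the mean ± SD. HNF4A, FOXA1 and FOXA3 lie lower in all HFPO-TA libraries, CEBPA and PROX1 lie higher in all of them, and FOXA2 spreads from 6.68 to 12.81 TPM with HFPO-TA.

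The labelled cell type was checked against marker lists of 9 kinds of cell. All 10 hepatoblast and hepatocyte markers had a mean of at least 1 TPM, with AFP, a serum protein made by fetal liver, at 63150, 66804 and 65107 TPM with HFPO-TA, against 71682, 78996 and 79063 TPM with DMSO. The summed level of that list ran from 96700 to 105000 TPM with HFPO-TA and from 107000 to 118000 TPM with DMSO. Gut and pancreas markers were also present in all 6 of the list, and CDX2, a homeobox factor of the intestine, stood at 53.67 to 61.89 TPM with HFPO-TA and 54.24 to 72.89 TPM with DMSO, above HNF4A in every library. The summed gut list was 260 to 269 TPM with HFPO-TA and 280 to 289 TPM with DMSO, and the summed pluripotency list 11.9 to 14.6 against 14.7 to 15.9 TPM. Sums of the biliary, definitive endoderm, stromal, endothelial, neural and blood lists overlapped between the groups. All 5 biliary, 8 stromal and 5 endothelial markers had a mean of at least 1 TPM. So did 2 of 5 definitive endoderm, 2 of 5 neural and 1 of 5 blood markers. STMN2 (neural) stood at 17.51 to 37.17 TPM with HFPO-TA and 27.28 to 31.87 TPM with DMSO. CD68 (blood) stood at 42.58 to 56.03 TPM with HFPO-TA and 43.48 to 47.71 TPM with DMSO. SOX1 (neural), HBA1 and HBB (blood) were listed at 0 in all 6 libraries. Every stromal marker except PDGFRA and ACTA2 was highest in replicate 1 of each group. COL3A1, for example, stood at 1191.24, 565.02 and 547.37 TPM with HFPO-TA and 1060.9, 696.39 and 793.62 TPM with DMSO. The lower hepatoblast and pluripotency sums rest on some of the markers, since 4 of 10 hepatoblast markers (AFP, ALB, TTR and APOB) and 2 of 5 pluripotency markers (LIN28A and DNMT3B) were lower without overlap. The others of these 2 lists overlapped, and POU5F1, a defining pluripotency factor, stood at 0.19 to 1.75 TPM with HFPO-TA and 0.33 to 0.78 TPM with DMSO. The hepatoblast, gut and pluripotency sums move with the lower HNF4A, FOXA1 and FOXA3 values, and their part in those differences was not tested. In bulk RNA, fewer cells of a type and less RNA per cell cannot be told apart.

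In levels per gene length, CEBPA stood highest in each of the 6 libraries, followed by HNF4A and then FOXA3, and NR5A2, ONECUT1 and PROX1 closed the order. CEBPA exceeded 90.5% of tested genes with HFPO-TA and 88.9% with DMSO. The corresponding shares were 80.5% and 84.8% for HNF4A, but only 4.91% and 1.65% for ONECUT1. Neighbours in this order did not overlap with DMSO except for ONECUT1 and PROX1. With HFPO-TA, FOXA3 and FOXA2, FOXA2 and FOXA1, and ONECUT1 and PROX1 overlapped. FOXA2 lay above FOXA1 in HFPO-TA replicates 2 and 3 and below it in HFPO-TA replicate 1 and all 3 DMSO libraries.

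The stretches upstream of 3 members are shown. HNF4A and CEBPA were taken because they differed in opposite directions. HNF4A and NR5A2 were taken because their stretches hold ONECUT letters (HNF4A) or FOXA letters (NR5A2). Each is the stretch before a RefSeq start (GRCh38.p14), 250 bases long or, for CEBPA, the 220 bases that precede its GENCODE exon. All run in the gene's direction, and capitals mark a match on either strand to a searched motif. HNF4A has a pair of windows, the upstream P2 start at chr20:44355449-44355698 (plus strand) and the P1 start, the main one of adult liver, at chr20:44400989-44401238 (plus strand). The NR5A2 window, the second in the table for this gene, is chr1:200042341-200042590 (plus strand) and that of CEBPA is chr19:33302565-33302784 (minus strand).
HNF4A P2: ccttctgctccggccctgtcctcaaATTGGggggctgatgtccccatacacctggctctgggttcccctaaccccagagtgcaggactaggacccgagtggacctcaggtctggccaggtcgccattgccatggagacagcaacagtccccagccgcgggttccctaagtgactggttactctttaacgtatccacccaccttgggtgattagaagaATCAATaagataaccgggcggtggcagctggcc
HNF4A P1: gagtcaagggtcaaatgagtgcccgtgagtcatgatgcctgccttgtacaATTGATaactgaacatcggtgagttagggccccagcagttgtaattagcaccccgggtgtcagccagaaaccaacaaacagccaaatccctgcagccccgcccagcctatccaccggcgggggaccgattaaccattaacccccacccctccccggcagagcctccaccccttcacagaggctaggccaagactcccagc
NR5A2: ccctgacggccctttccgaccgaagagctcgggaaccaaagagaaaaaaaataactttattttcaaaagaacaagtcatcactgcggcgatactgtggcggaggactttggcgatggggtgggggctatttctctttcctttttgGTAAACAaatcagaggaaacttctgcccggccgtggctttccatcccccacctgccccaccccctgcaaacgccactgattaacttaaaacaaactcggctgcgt
CEBPA: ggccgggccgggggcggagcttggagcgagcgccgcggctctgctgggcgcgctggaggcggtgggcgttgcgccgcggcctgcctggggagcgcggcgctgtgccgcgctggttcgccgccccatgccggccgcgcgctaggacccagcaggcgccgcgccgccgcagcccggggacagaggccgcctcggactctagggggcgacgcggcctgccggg

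Exact letters were searched on both strands of windows from 250 bases before to 50 bases after each start, in 8 windows of 6 members and in all 35116 windows of the RefSeq table. The ONECUT letters ATTGAT lie 200 bases before the P1 start of HNF4A and, on the opposite strand, 33 bases before its P2 start. They are held by 6.26% of all windows. The FOXA letters TGTTTAC lie on the opposite strand, 105 bases before the start of the printed NR5A2 window, with 3.42% of all windows holding them. TATAAA lies 30 bases before the starts of both CEBPA and FOXA3 and, on the opposite strand, 201 bases before the first NR5A2 start, and 11.5% of all windows hold it. The CEBPA match falls in the exon bases that are not printed. AGGTCA, the core letters of many nuclear receptors, lies in 2 member windows, against 13.8% of all windows. It is 239 bases before the FOXA3 start, on the opposite strand, and 84 bases before the first NR5A2 start. CCAAT lies in 2 (HNF4A P2, on the opposite strand, and ONECUT1), against 34.6%. The HNF4 core CAAAGTCCA, the CEBP letters TTGCGCAA, the ONECUT letters ATCGAT and the NR5A letters AAGGTCA, which contain AGGTCA, were in none of the 8 member windows, against 0.384%, 0.151%, 0.763% and 3.92% of all windows. The FOXA1 window held no searched motif. Its GC share was 69.3%, against 80.7% for CEBPA, 57.7% for HNF4A P1 and a median of 58.7% over all windows. A match is a description of letters and not a bound site.

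HNF4A, the orphan nuclear receptor on which hepatocyte gene expression depends, lies on chromosome 20 from 44355700 to 44434596 (GENCODE 29, GRCh38, plus strand). It stood at 38.88, 37.04 and 39.32 TPM with HFPO-TA, against 46.98, 47.29 and 53.54 TPM with DMSO. The groups did not overlap, and the gap of 7.66 TPM between the highest HFPO-TA and the lowest DMSO library exceeded the SD of either group (38.4 ± 1.21 TPM with HFPO-TA and 49.3 ± 3.70 TPM with DMSO, mean ± SD, n = 3 each). The log2 fold change of TPM + 1 was -0.35 (SE 0.08, 95% interval -0.53 to -0.17, not adjusted for the number of genes), with a limma adjusted p of 0.119. HNF4A ranked 297 among the 15664 tested genes by p-value. Its log2 fold change lay between -0.39 and -0.29 under 17 other settings, in which its adjusted p ran from 0.0856 to 0.409.

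HNF4A-AS1, transcribed from the opposite strand inside HNF4A between its P2 and P1 starts, was also lower in every HFPO-TA library. It stood at 20.29, 16.20 and 14.46 TPM with HFPO-TA, against 25.53, 28.52 and 23.98 TPM with DMSO (log2 fold change -0.60, SE 0.13, limma adjusted p = 0.116). In GENCODE 29 it shares 0 exonic bases with HNF4A, and no 75-base stretch of an HNF4A transcript occurs in a transcript of another gene. Whether the libraries kept strand is not given in the sources used here, so reads from unspliced HNF4A and from its antisense partner cannot be told apart. The ratio of HNF4A-AS1 to HNF4A overlapped between the groups, at 0.368 to 0.522 with HFPO-TA and 0.448 to 0.603 with DMSO. The file gives 1 value per gene, so P1 and P2 transcripts were not separated.

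NR5A2, also called LRH-1, is a nuclear receptor that acts on bile acid and cholesterol transport genes. It lies on chromosome 1 from 200027602 to 200177424 (plus strand) and stood at 5.73, 5.06 and 4.95 TPM with HFPO-TA, against 4.65, 5.52 and 4.40 TPM with DMSO. The groups overlapped, and the log2 fold change was 0.10 (SE 0.13, 95% interval -0.21 to 0.41, limma adjusted p = 0.845). The interval spans 0, so neither direction is shown.

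Of the 3 FOXA genes, paralogs of the forkhead family, FOXA1 and FOXA3 separated the groups and FOXA2 overlapped. FOXA1, on chromosome 14 from 37589984 to 37596059 (minus strand), stood at 6.86, 8.36 and 7.14 TPM with HFPO-TA, against 9.99, 10.04 and 9.46 TPM with DMSO (7.45 ± 0.798 and 9.83 ± 0.321 TPM, mean ± SD). The groups did not overlap, with a log2 fold change of -0.36 (SE 0.11, 95% interval -0.63 to -0.10) and a limma adjusted p of 0.255. TTC6, on the opposite strand, overlaps FOXA1 by 16 exonic bases and stood at 0.22 to 1.02 TPM with HFPO-TA and 0.29 to 0.65 TPM with DMSO. FOXA3, on chromosome 19 from 45863989 to 45873797 (plus strand), stood at 12.12, 13.52 and 13.89 TPM with HFPO-TA, against 14.39, 16.85 and 14.84 TPM with DMSO. It too was lower in every HFPO-TA library, but by a margin of 0.50 TPM, less than the SD of either group (log2 fold change -0.21, SE 0.11, limma adjusted p = 0.497).

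FOXA2, on chromosome 20 from 22581005 to 22585455 (minus strand), is also a factor of endoderm and gut. It stood at 6.68, 9.38 and 12.81 TPM with HFPO-TA, against 7.56, 7.77 and 8.75 TPM with DMSO. Its HFPO-TA libraries lay on both sides of the DMSO range, with a coefficient of variation of 31.9% against 7.91% with DMSO, the widest HFPO-TA spread of the 8 members. The log2 fold change of 0.20 (SE 0.20, limma adjusted p = 0.775) turned to -0.01 without HFPO-TA replicate 3 and was 0.41 without HFPO-TA replicate 1, so its direction rested on 1 library. LINC00261, a noncoding gene 2363 bases downstream on the same strand, stood at 13.99, 16.75 and 16.54 TPM with HFPO-TA, against 17.13, 17.04 and 17.52 TPM with DMSO. It was lower in every HFPO-TA library (log2 fold change -0.13, SE 0.10, limma adjusted p = 0.692) and did not follow the HFPO-TA replicate 3 value of FOXA2.

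The summed level of the 3 paralogs overlapped between the groups, at 25.7, 31.3 and 33.8 TPM with HFPO-TA and 31.9, 34.7 and 33.0 TPM with DMSO. FOXA1 made up 26.7%, 26.7% and 21.1% of that sum with HFPO-TA, against 31.3%, 29% and 28.6% with DMSO, and these shares did not overlap. FOXA2 made up 26% to 37.9% with HFPO-TA and 22.4% to 26.5% with DMSO, and FOXA3 41.0% to 47.2% and 44.9% to 48.6%. FOXA3 held the greatest share in each of the 6 libraries. The ratio of FOXA2 to FOXA1 was 0.974, 1.12 and 1.79 with HFPO-TA, against 0.757, 0.774 and 0.925 with DMSO, without overlap. No test was run on these shares, which follow from the values above.

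CEBPA, a leucine zipper factor of mature hepatocyte metabolism, is a gene of 1 exon on chromosome 19 from 33299934 to 33302564 (minus strand). It stood at 70.17, 77.24 and 89.59 TPM with HFPO-TA, against 68.01, 65.88 and 68.24 TPM with DMSO. All HFPO-TA libraries lay above the DMSO range, replicate 1 by 1.93 TPM, and the spread was wider with HFPO-TA (79.0 ± 9.83 TPM, mean ± SD) than with DMSO (67.4 ± 1.30 TPM). The log2 fold change was 0.22 (SE 0.09, 95% interval 0.01 to 0.43, limma adjusted p = 0.400), and it was 0.13 without HFPO-TA replicate 3.

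The value of CEBPA is uncertain because AC008738.3, an antisense gene of GENCODE 29, overlaps it from 33299934 to 33301168 on chromosome 19 and shares 659 exonic bases with it. Of the 75-base stretches of the CEBPA transcript, 33.6% also occur in AC008738.3 or in AC008738.5, which was listed at 0 throughout. AC008738.3 stood at 45.88, 47.20 and 43.85 TPM with HFPO-TA, against 24.80, 32.31 and 35.42 TPM with DMSO. It was higher in every HFPO-TA library, by a log2 fold change of 0.57 (SE 0.13, limma adjusted p = 0.116). Without knowledge of strand, reads of the shared stretch could have been assigned to either gene. CEBPA-DT, which starts 293 bases from CEBPA on the opposite strand, stood at 1.70 to 1.91 TPM with HFPO-TA and 1.95 to 3.47 TPM with DMSO, and so lay on the other side.

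**Figure D2:**
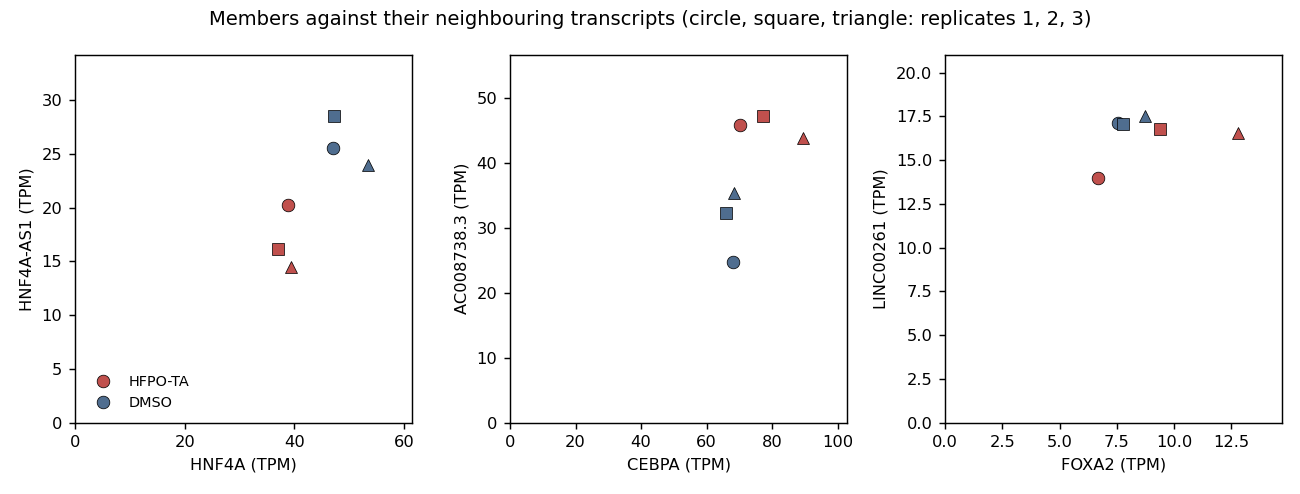
Level of a neighbouring noncoding gene (vertical axis, TPM) against that of the member (horizontal axis, TPM) for HNF4A and HNF4A-AS1, CEBPA and AC008738.3, and FOXA2 and LINC00261, with 1 point per library (HFPO-TA red, DMSO blue). In the first panel both genes are lower in every HFPO-TA library, and in the second both are higher. In the last, LINC00261 (13.99 to 17.52 TPM) is lower in every HFPO-TA library, while FOXA2 (6.68 to 12.81 TPM) overlaps between the groups.

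The ratio of CEBPA to HNF4A separated the groups. That follows from the values above, since CEBPA was higher and HNF4A lower in every HFPO-TA library. CEBPA exceeded HNF4A 1.80, 2.09 and 2.28 times with HFPO-TA, against 1.45, 1.39 and 1.27 times with DMSO. CEBPA made up 49.1% to 52.8% of the summed TPM of the 8 members with HFPO-TA and 42.4% to 44.5% with DMSO, and HNF4A 23.2% to 27.2% and 30.5% to 33.3%. The sum itself overlapped between the groups, at 143 to 170 TPM with HFPO-TA and 153 to 161 TPM with DMSO. These ratios are within a library and carry no scaling between libraries, and no test was run on them.

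**Figure D3:**
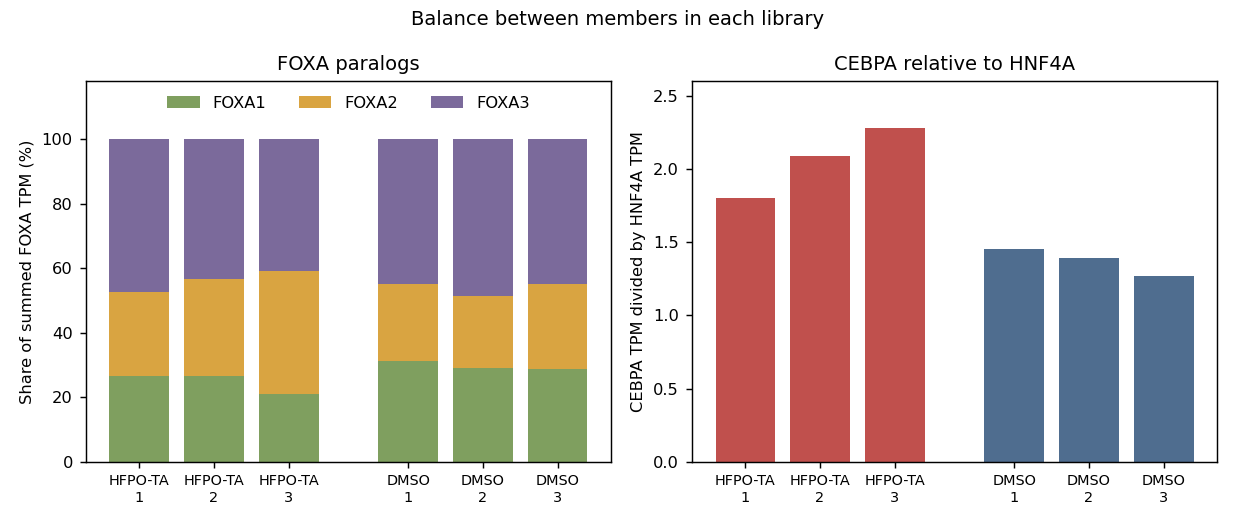
Left, share of FOXA1, FOXA2 and FOXA3 in their summed TPM (%) in each library; right, CEBPA TPM divided by HNF4A TPM in each library, with HFPO-TA libraries left of DMSO libraries in both panels. FOXA1 takes 21.1% to 26.7% with HFPO-TA and 28.6% to 31.3% with DMSO, and the CEBPA to HNF4A ratio is 1.80 to 2.28 with HFPO-TA and 1.27 to 1.45 with DMSO.

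The homeobox members were the lowest. ONECUT1, also called HNF6, lies on chromosome 15 from 52756989 to 52791078 (minus strand) and stood at 1.55, 0.94 and 1.04 TPM with HFPO-TA, against 0.72, 1 and 1.18 TPM with DMSO. The groups overlapped (log2 fold change 0.14, SE 0.19, 95% interval -0.31 to 0.59, limma adjusted p = 0.838), and the log2 fold change was 0.02 without HFPO-TA replicate 1. Its paralogs ONECUT2 and ONECUT3, named after their values were seen, had means of 0.04 TPM or less in both groups.

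PROX1, the prospero homeobox factor, lies on chromosome 1 from 213983181 to 214041502 (plus strand) and stood at 0.80, 0.84 and 0.94 TPM with HFPO-TA, against 0.54, 0.78 and 0.53 TPM with DMSO. The groups did not overlap, but the margin was 0.02 TPM, and PROX1 stayed below 1 TPM in all 6 libraries and was left out of the test by the filter. In the fit without a filter, over 31843 genes, its log2 fold change was 0.21 (SE 0.14, 95% interval -0.13 to 0.55, limma adjusted p = 0.761). PROX1-AS1 overlaps its start on the opposite strand, shares 171 exonic bases and stood at 0.87, 0.12 and 1.78 TPM with HFPO-TA, against 0.05, 0.33 and 0.19 TPM with DMSO. The depth of these libraries is unknown, so the counting error of values near 1 TPM cannot be given.

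Other factors that work beside the members were read from a list of 40. Of these 29 were tested, 1 rose, 0 fell and 28 did not pass, with a median log2 fold change of -0.002, beside -0.01 for all tested genes, of which 0.185% rose and 0.306% fell. Groups did not overlap in 6 of the 29 on the higher side and 6 on the lower side, against 8.55% and 9.40% of all tested genes. The one that rose was CREB3L3, a membrane-bound factor of fasting and triglyceride metabolism and itself a known target of HNF4A. It stood at 82.11, 88.44 and 90.19 TPM with HFPO-TA, against 60.90, 60.25 and 59.16 TPM with DMSO (log2 fold change 0.52, SE 0.06, limma adjusted p = 0.0272). The call was kept without HFPO-TA replicate 1 and lost without any of the other 5 libraries, at adjusted p from 0.0552 to 0.189, with log2 fold changes from 0.497 to 0.573 over 17 settings.

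A few paralogs and partners of the members, chosen after their values were seen, are given as values. CEBPB, an inducible relative of CEBPA, stood at 23.58, 26.67 and 41.85 TPM with HFPO-TA, against 21.50, 14.44 and 15.16 TPM with DMSO (log2 fold change 0.79, limma adjusted p = 0.240). CEBPD stood at 69.65 to 97.94 TPM with HFPO-TA and 58.59 to 65.53 TPM with DMSO. CEBPG, of the same family, overlapped, at 37.70 to 44.93 TPM with HFPO-TA and 37.23 to 42.97 TPM with DMSO (limma adjusted p = 0.764). GATA4, an early endoderm factor, stood at 30.97 to 35.25 TPM with HFPO-TA and 37.31 to 45.51 TPM with DMSO (limma adjusted p = 0.314). GATA6, its paralog, overlapped, at 18.86 to 22.41 TPM with HFPO-TA and 20.36 to 22.55 TPM with DMSO (limma adjusted p = 0.865). HNF4G, the paralog of HNF4A, also overlapped, at 2.71 to 4.18 TPM with HFPO-TA and 3.20 to 4.24 TPM with DMSO (limma adjusted p = 0.844). HHEX, needed for the liver bud in mice, lay below the filter, at 0.44 to 0.90 TPM with HFPO-TA and 0.64 to 0.87 TPM with DMSO. PPARA, a nuclear receptor of fatty acids, stood at 26.86 to 29.31 TPM with HFPO-TA and 17.77 to 25.14 TPM with DMSO (limma adjusted p = 0.270).

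**Figure D4:**
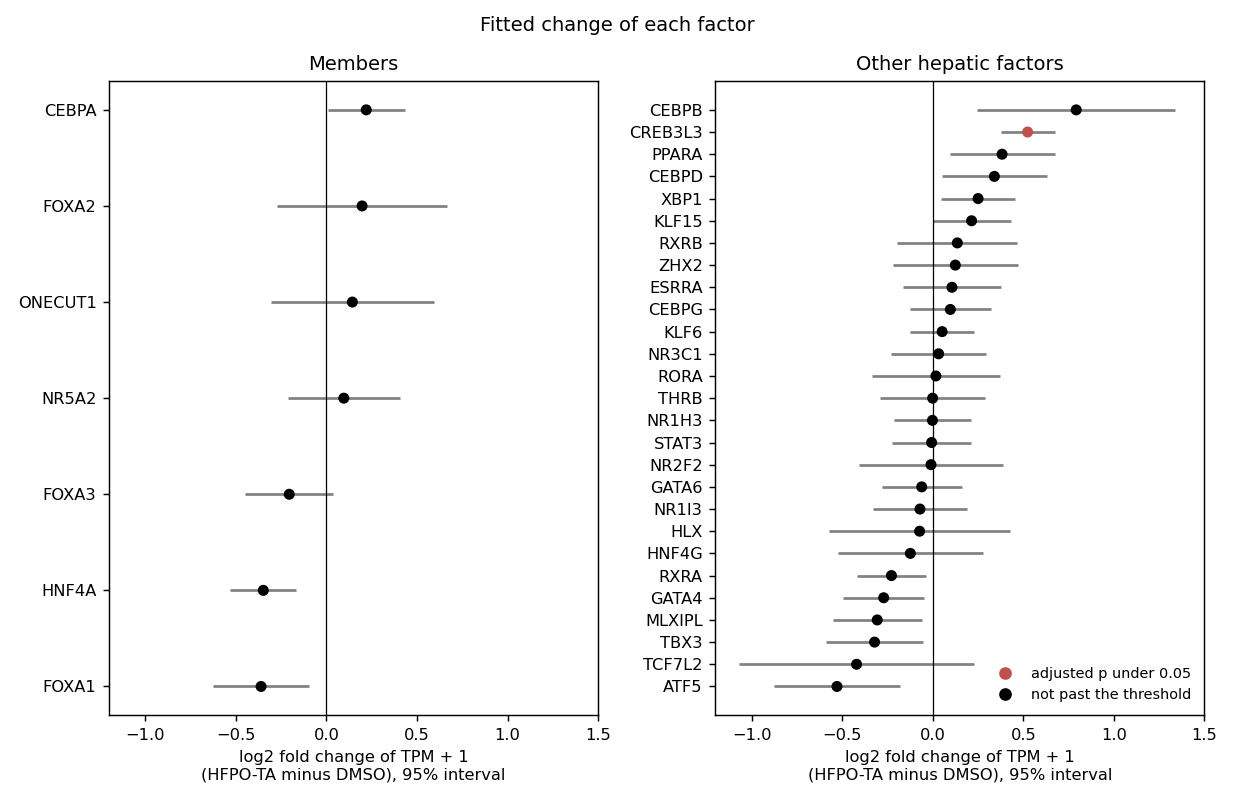
Fitted log2 fold change of TPM + 1, HFPO-TA minus DMSO (horizontal axis), with its unadjusted 95% interval for the 7 tested members (left) and 27 of the 29 tested factors of the second list (right), ordered by size. Red marks an adjusted p under 0.05, reached by CREB3L3 and by 0 of the 7 members, whose values run from -0.36 for FOXA1 to 0.22 for CEBPA.

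Of the coregulators through which such factors act, all 15 listed were tested and 0 passed, against 0.492% of all tested genes. Of the 15, 1 had an unadjusted p under 0.05 (HDAC3), against 12.0% of all tested genes. Their median log2 fold change was 0.07. HDAC3, a histone deacetylase, stood at 30.38, 32.85 and 33.01 TPM with HFPO-TA, against 40.21, 40.97 and 42.51 TPM with DMSO (log2 fold change -0.35, SE 0.07, limma adjusted p = 0.0996). PPARGC1A, a coactivator of HNF4A in fasting, stood at 2.63, 1.45 and 1.64 TPM with HFPO-TA, against 1.07, 1.53 and 1.36 TPM with DMSO, with overlap (limma adjusted p = 0.617).

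Known targets of the members changed in both directions. The 4 target lists hold 44 genes, several of them on more than 1 list (8 are shared by the FOXA and CEBPA lists, 57.1% of each). Of the 33 tested, 2 rose, 1 fell and 30 did not pass, and the median log2 fold change was -0.13, beside -0.01 for all tested genes. Of the 33, groups did not overlap in 13 on the lower side and 5 on the higher side, against 9.40% and 8.55% of all tested genes. By list, the median was -0.12 for the 20 tested HNF4A targets (1 rose, 1 fell). It was -0.24 for the 11 FOXA targets (1 rose, 0 fell) and -0.24 for the 10 CEBPA targets (1 rose, 0 fell). For the 9 NR5A2 targets it was -0.02, and 0 were called. Of these 9, 3 had an unadjusted p under 0.05 (APOM, SHBG and CYP8B1), against 12.0% of all tested genes. APOM and CYP8B1 are also on the HNF4A list, and the other 3 lists hold such genes too. Groups did not overlap in 8 lower and 4 higher of the 20 HNF4A targets, and in 5 and 1 of the 11 FOXA targets. For the 10 CEBPA targets these were 4 and 1, and for the 9 NR5A2 targets 3 and 0. CYP8B1 was named after its value was seen.

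FGFR4, the hepatic receptor of FGF19, fell to 119.42, 112.27 and 114.15 TPM with HFPO-TA, against 149.66, 147.26 and 159.01 TPM with DMSO (log2 fold change -0.40, SE 0.06, limma adjusted p = 0.0419). Of the HNF4A list CREB3L3, above, rose. PCK1, the gluconeogenic enzyme on both the FOXA and CEBPA lists, rose to 270.77, 259.12 and 275.61 TPM with HFPO-TA, against 184.09, 128.14 and 145.88 TPM with DMSO (log2 fold change 0.83, SE 0.12, limma adjusted p = 0.0418). FGFR4 kept its call without HFPO-TA replicate 1 and lost it without any of the other 5 libraries (adjusted p 0.0817 to 0.227). PCK1 kept its call without DMSO replicate 1 and lost it without any of the other 5 libraries (adjusted p 0.0534 to 0.227). Over the 17 other settings the calls were made in 8 for CREB3L3, 7 for FGFR4 and 9 for PCK1. ALB, serum albumin, is on both the FOXA and CEBPA lists and has the next smallest p there after PCK1, and it is named after its value was seen. It stood at 54.07, 66.39 and 73.51 TPM with HFPO-TA, against 100.92, 128.68 and 108.63 TPM with DMSO, without overlap (log2 fold change -0.80, SE 0.13, limma adjusted p = 0.0522), and it passed in 5 of the 17 other settings. Of the NR5A2 list, APOM, a lipoprotein component, stood at 19.34, 24.27 and 21.05 TPM with HFPO-TA, against 25.03, 27.17 and 29.49 TPM with DMSO (limma adjusted p = 0.277). SHBG, the sex hormone binding globulin, stood at 2.49, 3.85 and 3.07 TPM with HFPO-TA, against 4.19, 4.36 and 4.48 TPM with DMSO (limma adjusted p = 0.391).

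For each member the 3 genes with the nearest pattern were taken from 10139 genes with a mean of at least 5 TPM, by the root mean square difference of log2(TPM + 1) centred on each gene's mean over the 6 libraries. The nearest to HNF4A were SELENOO (0.03), TUBB4A (0.04) and PYGB (0.04), against a spread of 0.19 for HNF4A itself. Those of FOXA1 were SLC44A4, NBL1 and CSRP1 (0.05 to 0.06, own spread 0.20), and those of FOXA3 UNC119, REEP1 and ITPA (0.03 to 0.04, own spread 0.13). Those of CEBPA were KLC1, ATP5PB and SDC1 (0.03 to 0.04, own spread 0.15). FOXA2, with the widest spread (0.27), had PGP, PUS1 and MMP24OS at 0.06 to 0.09. The nearest to NR5A2 were STARD4, POLI and ZCCHC17 (0.01 to 0.03), to ONECUT1 GNAL, ERMARD and TENT2 (0.06 to 0.07) and to PROX1 TMCO1, ELOC and MTFR1 (0.02 to 0.03), with own spreads of 0.11, 0.17 and 0.13. Adding 1 to TPM shrinks the spreads of ONECUT1 and PROX1, near 1 TPM, more than those of the candidates. PROX1, 39.5% higher on mean TPM, was thus matched to TMCO1, at means of 112 TPM with HFPO-TA and 97.8 TPM with DMSO. None of the 24 nearest genes was called, against 0.492% of all tested genes. They were picked for likeness to members of which none was called, so this adds no separate result.

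**Figure D5:**
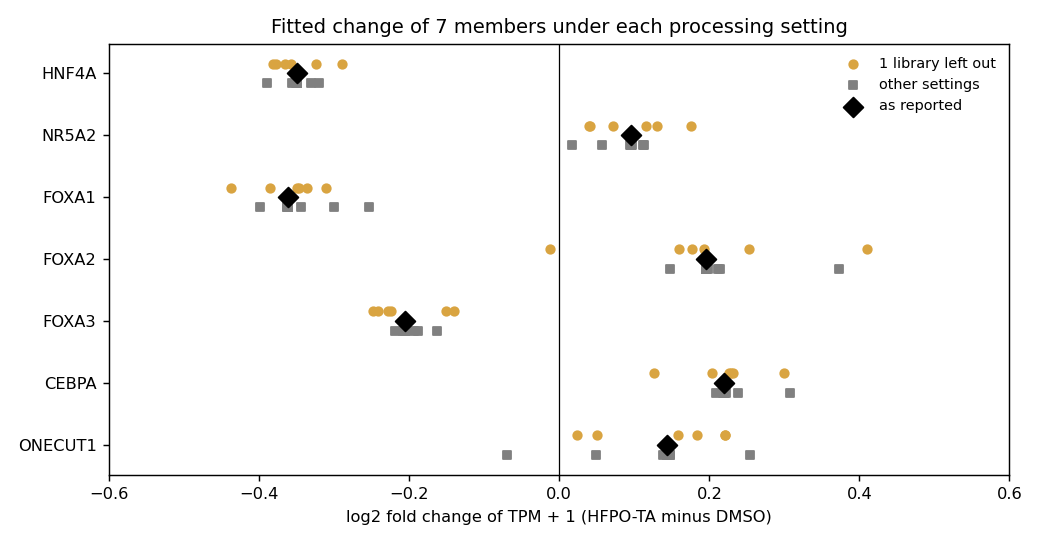
Fitted log2 fold change of TPM + 1, HFPO-TA minus DMSO (horizontal axis), of the 7 tested members as reported (diamond), with 1 library left out (yellow circles) and under the other settings (grey squares). HNF4A, FOXA1 and FOXA3 stay below 0 and CEBPA and NR5A2 above 0 in all of them, while FOXA2 (-0.01) and ONECUT1 (-0.07) cross 0 once each.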

How the data were processed

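Total RNA of 3 HFPO-TA and 3 DMSO libraries was sequenced by the authors. Each deposited table gives 1 value per gene, headed FPKM, but the columns sum to between 995690 and 996186, so the deposited values were read as TPM. GRCh38.p13 as build and RSEM, HISAT and Bowtie2 as tools come from the submitters' processing notes, without versions or roles. The sources used here do not give strand, annotation or filters. Depth cannot be read from TPM, which leaves counting intervals out, and each library had 15383 to 15905 genes at 1 TPM or more.

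Values were transformed to log2(TPM + 1), which understates the change of low genes. The 15664 genes reaching 1 TPM in 3 or more libraries were fitted with limma 3.58.1 in R 4.3.3, with treatment as the only term and a trended, robust variance, and p-values were adjusted over all of them (2-sided). Genes with an adjusted p under 0.05 were called, and only for these is "rose" or "fell" used. A positive log2 fold change means higher with HFPO-TA. The fit was tested on simulated data. Means are given with SD.

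Members and lists were chosen with earlier results of these data known, so lists are described by counts and medians with no set test. G6PC1 stands as G6PC in the files. From each list the called genes were named, or the 2 with the smallest p where none was called. Loci and exons came from GENCODE 29, upstream sequences from RefSeq (GRCh38.p14), which held windows for 6 of the 8 members. Some planned items are not reported here. Figures were drawn with matplotlib 3.10.9. Alternatives covered pseudocount, filter, variance estimate, scaling, gene type, replicate terms and each library left out.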

Additional observations from a re-analysis of the deposited data

How the results depend on the processing

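The number of members called was 0 under each of the 17 alternatives, and so was that of coregulators. The 7 members kept their direction under each alternative that gave a value, except that FOXA2 was at -0.013 without HFPO-TA replicate 3 and ONECUT1 at -0.07 with replicates 2 and 3 only. With 1 library left out the log2 fold change ran from -0.381 to -0.289 for HNF4A, -0.437 to -0.311 for FOXA1, -0.248 to -0.141 for FOXA3, -0.013 to 0.41 for FOXA2, 0.126 to 0.3 for CEBPA, 0.023 to 0.221 for ONECUT1 and 0.039 to 0.175 for NR5A2. ONECUT1 gave no value under the stricter filter, and PROX1 gave one only without a filter.

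Over all genes 77 were called as reported, and 10 without a filter, 11 without a variance trend, 29 and 40 with scaling by median of ratios and by upper quartile, 207 with a term for replicate 1, 222 with replicates 2 and 3 only, and 6 to 291 with 1 library left out. Without HFPO-TA replicate 1, 2 or 3 they numbered 291, 6 and 10, and without DMSO replicate 1, 2 or 3 they numbered 47, 14 and 7. Called other factors, 1 as reported, numbered 0 without a filter, without a variance trend or with median-of-ratios scaling, 2 with the term for replicate 1 and 0 to 2 with 1 library left out. Called targets, 3 as reported, numbered 0 without a filter or a variance trend, 1 with median-of-ratios scaling, 10 with the term for replicate 1, 9 with replicates 2 and 3 only and 0 to 7 with 1 library left out. With the stricter filter, or protein-coding genes only, 2 targets were called higher and 2 lower. Leave-out fits hold fewer libraries; for the other settings the cause was not tested.

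The labels state no pairing. Deviations correlated at 0.184, 0.123 and 0.028 between libraries of the same number and all libraries except HFPO-TA replicate 3 matched their own number best, which is a hint from the data and not from the design. With the replicate number as a block 30 genes were called, 0 members, 0 other factors and 1 target. That target was APOA2 (adjusted p 0.00689, against 0.089 as reported), while CREB3L3, PCK1 and FGFR4 had adjusted p of 0.061, 0.0556 and 0.0777.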
